A study of Mus musculus with 3 samples.

Results

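The genes described here are the adult globins and a pair of other genes of the red cell lineage, Alas2 and Slc4a1, measured in mouse neural retina. Every probe set whose array annotation names Hba-a1, Hbb-b1, Hbb-b2, Hbb-bs, Hbb-bt, Alas2 or Slc4a1 was taken, which gave 7 of the 12422 probe sets that are not array controls. The genes were chosen by name with their signals in these same 3 samples known, the high signal in pool 2 included, so the values of the members are a description and no test was made on them. The samples were 3 pools of neural retina, each from 3 to 4 Rp1-/- mice of a mixed 129/SvEv and C57BL/6 background, killed at postnatal day 21 (P21) with retinas taken between 1 and 2 pm. Each pool was hybridised to 1 array whose sample title names the U74Av2 design. All pools carry the knockout, no wild-type retina was analysed here, and the numbers 1 to 3 only name the pools. The labels do not say whether blood was cleared from the vessels before the retinas were removed.

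Haemoglobin is a tetramer of alpha and beta globin chains, each holding a haem group. Developing red cells transcribe the globin genes at a very high rate, lose their nucleus, and enter the blood as reticulocytes that still hold globin mRNA. The retina has no erythroid cells of its own, but its inner layers are fed by vessels that carry red cells. Mice differ in their beta-globin locus by strain: C57BL/6 carries the single haplotype, with the genes Hbb-bs and Hbb-bt, and other strains carry the diffuse haplotype, with Hbb-b1 and Hbb-b2. Alas2 encodes the erythroid form of the first enzyme of haem synthesis, and Slc4a1 encodes band 3, the anion exchanger of the red cell membrane.

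Values are scaled signals, in the linear intensity units of the deposited table, and each array had its own limit for a signal above background, the 95th percentile over 19 control probe sets whose bacterial or yeast targets should be missing from mouse RNA. It stood at 160.3 in pool 1, 80.7 in pool 2 and 107.1 in pool 3. Where the lower pool of a ratio lay below its limit, the limit took its place and the ratio is given as at least that large. Across all 12422 probe sets 54.4% were above the limit on all 3 arrays, and of the 7 member probe sets 4 were. Another 2, for Alas2 and Slc4a1, were above it on 2 arrays, and 1 beta-globin probe set was above it on no array. The brightest probe sets were somewhat higher in pool 2 as a whole. For the 211 probe sets with a mean signal of 5000 or more, the median ratio was 1.55 for pool 2 over pool 1 and 1.29 for pool 2 over pool 3, and for 9 spiked hybridisation controls these medians were 1.39 and 1.36. With 3 arrays the precision of all values is low, and fewer cells of a type cannot be told apart from less RNA per cell in such tissue pools.

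Adult alpha globin was highest in pool 2. The Hba-a1 probe set 94781_at gave 4077, 25566 and 6661 in pools 1, 2 and 3. Pool 2 therefore stood well above both other pools, at 6.27-fold over pool 1 and 3.84-fold over pool 3, while pool 3 was 1.63-fold over pool 1. The mean was 12101 ± 11732 (SD, n = 3), a mean that rests on pool 2, since it was 5369 without it. The probe set 162457_f_at, annotated to both Hba-a1 and Hba-a2, the near-identical second alpha-globin gene, gave 1592, 4134 and 2367. The pools kept the same order here, but the ratios were smaller, at 2.60 for pool 2 over pool 1 and 1.75 for pool 2 over pool 3. The mean of this probe set was 2697 ± 1303 (SD, n = 3). The 2 alpha-globin probe sets cannot be assigned to 1 copy of the gene, because the copies share their sequence nearly throughout.

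Adult beta globin had the same order of pools at one shared probe set and a single high pool at another. The probe set 101869_s_at, annotated to Hbb-bs, Hbb-bt, Hbb-b1 and Hbb-b2 together, gave 5848, 33901 and 7823 in pools 1, 2 and 3. Pool 2 was 5.80-fold over pool 1 and 4.33-fold over pool 3, with pool 3 at 1.34-fold over pool 1. The mean was 15857 ± 15657 (SD, n = 3), or 6835 without pool 2. The probe set 103534_at, annotated to Hbb-b2 alone, gave 1218, 5536 and 1207. Pools 1 and 3 were nearly equal here, at a ratio of 0.991, and pool 2 was 4.54-fold and 4.59-fold over them. Its mean was 2654 ± 2496 (SD, n = 3), or 1213 without pool 2.

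Although 103534_at carries the name of a single gene, the 4 beta-globin copies are so alike that its signal may come from several of them. The haplotypes of the pooled mice are not given in the labels, and these probe sets do not separate the haplotypes. A further probe set for the same 4 genes, 160560_at, gave 71.6, 26.0 and 9.10. It was below the limit in every pool and did not follow the other beta-globin probe sets, so no ratio was formed for it.

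Alas2 was also highest in pool 2, with 1 pool below the limit. Its probe set 92768_s_at gave 82.8 in pool 1, below the limit, 505 in pool 2 and 145 in pool 3. Pool 2 was at least 3.15-fold over pool 1 and was 3.48-fold over pool 3, and pool 3 lay closer to its limit than pool 2 did. The mean was 244 ± 228 (SD, n = 3), or 114 without pool 2, which is set partly by a pool below the limit.

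Slc4a1 was not highest in pool 2. Its probe set 101077_at gave 113 in pool 1, below the limit, 109 in pool 2 and 240 in pool 3. The highest pool was thus pool 3, at 2.20-fold over pool 2 and at least 1.50-fold over pool 1. The mean was 154 ± 74.9 (SD, n = 3), and it was 176 without pool 2.

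**Figure D1:**
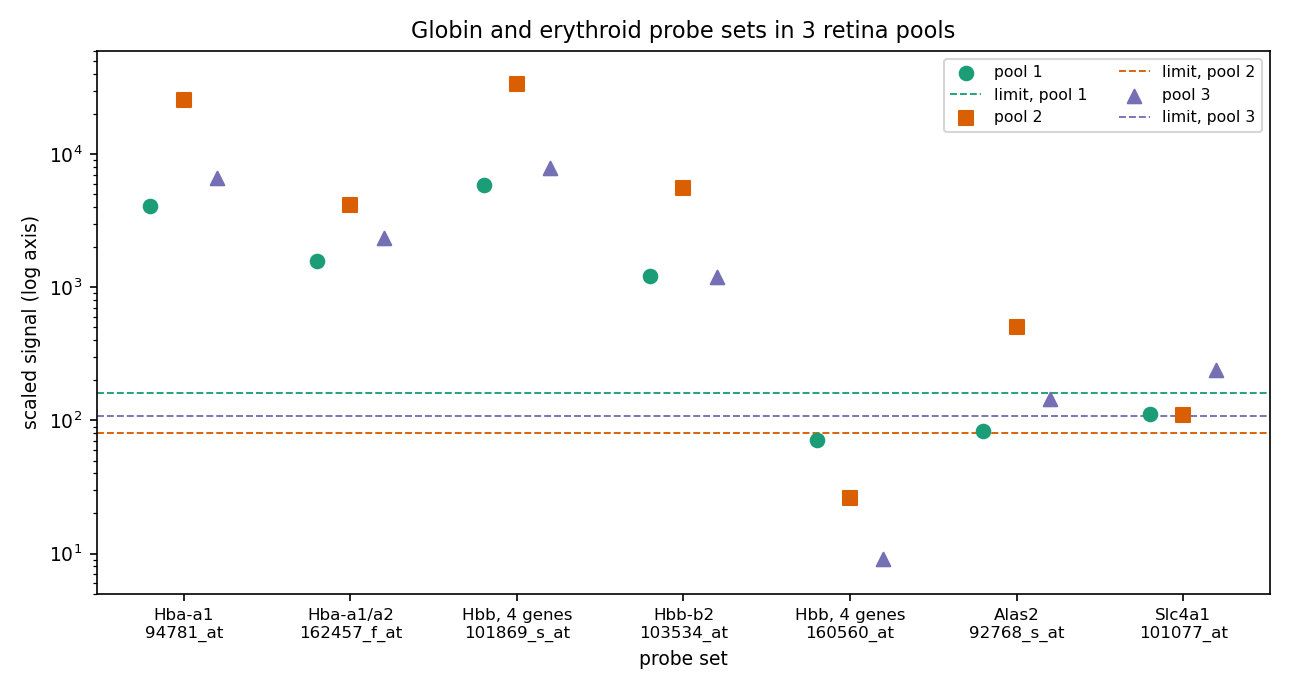
Scaled signal on a log axis for the 7 globin and erythroid probe sets in the 3 retina pools, 1 point per pool, with the limit of each array as a dashed line. The squares of pool 2 stand highest at the first 4 probe sets and at Alas2, the second shared beta-globin probe set is below every limit, and Slc4a1 is highest in pool 3.

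At 5 of the 7 member probe sets pool 2 was highest, as it was at 25% of all probe sets. Counted at a ratio of 2 or more over the higher of the other pools, with signals below an array's limit raised to it, 4 of the 7 member probe sets were called in pool 2. Of all 12422 probe sets 24 were called, or 0.193%. Since the genes were picked for this pattern, the share of members is given beside that background and nothing is read from it. Alas2, at a ratio of at least 3.15, was the called member nearest to the threshold, and the probe set shared by Hba-a1 and Hba-a2, at 1.75, lay just outside it. A ratio of 4 or more was reached by 3 probe sets, or 0.0242% of all, of which 2 were beta-globin probe sets and the third was Gpaa1. With arrays scaled to a common median, or without pool 3, the probe set shared by Hba-a1 and Hba-a2 joined the called ones, for a count of 5. In pool 1 as the higher pool, 9.88% of all probe sets were called, and in pool 3 the share was 0.982%.

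The profiles of the 4 members above the limit on all 3 arrays were compared as deviations of the log2 signal from its mean over the pools. For Hba-a1 these deviations were -1.12, 1.53 and -0.41 in pools 1, 2 and 3. The shared beta-globin probe set 101869_s_at had deviations of -0.99, 1.55 and -0.57, and Hbb-b2 had -0.72, 1.46 and -0.74. Euclidean distances to the profile of Hba-a1, in log2 units over 3 pools, were 0.21 for the shared beta-globin probe set, 0.52 for Hbb-b2 and 0.99 for the shared alpha-globin probe set. Since the members were chosen for a high pool 2, nothing is read from this likeness. For Alas2 and Slc4a1, below the limit in pool 1, no distance is given.

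Among 5004 other genes above the limit on all 3 arrays, the 8 with the profile most like that of Hba-a1 were Gpaa1, Prdx3, Rhoa, Ndufc1, Atp5e, Uqcr11, 4933434E20Rik and Gsto1, at distances from 0.56 to 0.91. The closest, Gpaa1, which encodes a subunit of the enzyme that attaches GPI anchors, gave 164, 660 and 162 in pools 1, 2 and 3. Prdx3, a mitochondrial peroxiredoxin, gave 767, 2652 and 1291. Both were highest in pool 2, Gpaa1 with nearly equal signals in the other pools. The subunits of the respiratory chain and of ATP synthase among the 8 were Ndufc1, with 989, 2860 and 1256, Uqcr11, with 473, 2050 and 1199, and Atp5e, with 504, 1755 and 983. With 3 points per gene, such likeness says little about a single gene. Named after their values were seen, Eif2ak1, the haem-regulated kinase that holds back globin synthesis in erythroid precursors when haem is short, gave 149, 551 and 143. Pool 2 was at least 3.44-fold over pool 1, where the signal was below the limit, and 3.85-fold over pool 3, so this gene was among the 24 probe sets called in pool 2. Of these, 20 were not members, and most of the 20 are not named here. Eif2ak1 was picked from them by name, so nothing is read from its place among them.

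The promoters of globin genes and of Alas2 are shown because probe sets annotated to these genes were highest in pool 2. Hbb-bs and Hbb-bt have no probe set of their own, so the signal of either copy is not known. Sequences are RefSeq's for assembly GRCm38.p6 and cover the 250 bases before the annotated start of transcription, 5′ to 3′ on the strand of the gene. They lie at chr11:32283422-32283671 on the plus strand for Hba-a1, at chr7:103827929-103828178 on the minus strand for Hbb-bs, at chr7:103813924-103814173 on the minus strand for Hbb-bt and at chrX:150547167-150547416 on the plus strand for Alas2. Capitals mark 4 motifs, each searched on both strands. They are CACCC (or GGGTG on the other strand), a box that Klf1 is known to bind in red cells, then GATAA (or TTATC), a form of the site of Gata1, then CCAAT (or ATTGG) and finally TATAA (or TTATA), both common in promoters.
Hba-a1: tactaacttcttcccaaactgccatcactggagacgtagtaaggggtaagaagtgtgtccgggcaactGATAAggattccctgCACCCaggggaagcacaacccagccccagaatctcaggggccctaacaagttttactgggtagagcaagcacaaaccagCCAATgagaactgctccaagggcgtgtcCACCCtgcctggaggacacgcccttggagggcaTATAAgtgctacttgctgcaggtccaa
Hbb-bs: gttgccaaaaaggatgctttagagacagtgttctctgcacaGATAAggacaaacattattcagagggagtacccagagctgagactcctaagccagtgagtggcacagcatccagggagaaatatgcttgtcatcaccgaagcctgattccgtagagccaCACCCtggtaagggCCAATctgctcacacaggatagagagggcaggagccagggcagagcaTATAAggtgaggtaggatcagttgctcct
Hbb-bt: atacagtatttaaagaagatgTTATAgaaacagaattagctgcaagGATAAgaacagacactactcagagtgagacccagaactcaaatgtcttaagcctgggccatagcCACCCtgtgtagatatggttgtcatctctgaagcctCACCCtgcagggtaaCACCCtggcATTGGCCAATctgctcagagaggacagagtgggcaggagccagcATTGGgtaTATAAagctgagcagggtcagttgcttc
Alas2: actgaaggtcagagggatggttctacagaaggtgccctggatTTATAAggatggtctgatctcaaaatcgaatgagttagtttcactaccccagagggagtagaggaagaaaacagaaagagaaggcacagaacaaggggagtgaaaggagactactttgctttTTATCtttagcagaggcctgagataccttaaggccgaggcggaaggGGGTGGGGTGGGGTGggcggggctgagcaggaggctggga

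All 4 promoters held CACCC and GATAA. The 3 globin promoters also held CCAAT and, less than 30 bases before the start, TATAA, which begins 27 bases before it in Hba-a1, 29 in Hbb-bs and 28 in Hbb-bt. Their forward-strand CCAAT begins 88 bases before the start in Hba-a1, 76 in Hbb-bs and 75 in Hbb-bt. In Alas2 no CCAAT was present in this window and TATAA was found only around 207 bases before the start, on both strands in overlapping letters, while 3 CACCC boxes on the reverse strand lay between 40 and 26 bases before the start. Such short motifs are common: of 32851 RefSeq promoters of the same length, 52.0% held CACCC, 22.6% GATAA, 33.8% CCAAT and 22.8% TATAA, and 0.968% held all of them. A match describes the letters of the window and is not evidence of binding. Over 250 bases the promoter of Hba-a2 shared an unbroken run of 247 bases with that of Hba-a1, with the annotated starts 3 bases apart, whereas Hbb-bs and Hbb-bt were 70.5% identical over 258 aligned columns. Of 8 genes looked up, Hbb-b1, Hbb-b2 and Slc4a1 had no entry.

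Other genes of the erythroid lineage were read from 4 lists with 49 genes, of which 32 were measured and 20 were above the limit on all 3 arrays, beside 60.7% of all genes. None of the 32 reached a ratio of 2 in pool 2, against 19 of 8251 genes in all (0.23%), and 9 of the 32 were highest in pool 2, against 2298 of 8251. Both counts are near these backgrounds. Over all 48 probe sets of the 32 genes none was called in pool 2 and 12 were highest there. Of the 13 genes with several probe sets, 8 had probe sets that differed in which pool was highest. The lists are described by counts and medians and were not tested. The median difference between pool 2 and the mean of the other pools, on the log2 scale over genes above the limit in at least 1 pool, was 0.05 for haem synthesis, -0.02 for the red cell membrane, -0.24 for red cell enzymes and late erythroid genes and -0.07 for erythroid transcription factors, beside -0.01 for all 6957 such genes.

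No measured gene of haem synthesis beyond Alas2 was called in pool 2. Alas1, the form of the first enzyme that all tissues use, gave 816, 1007 and 758 in pools 1, 2 and 3, a spread much narrower than that of Alas2. Alad, the second enzyme of the pathway, gave 1149, 759 and 771, and Urod, which trims the side chains of uroporphyrinogen, gave 941, 640 and 443, both highest in pool 1, although a dimmer Urod probe set gave 178, 183 and 272. Uros gave 628, 582 and 551. Of 8 measured genes 6 were above the limit on all 3 arrays, and 2, Alas1 and Cpox, were highest in pool 2. A second Cpox probe set, at 242, 136 and 157, was highest in pool 1.

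Of the red cell membrane genes 7 were measured and 5 were above the limit on all 3 arrays, with 2, Dmtn and Slc2a1, highest in pool 2. Ank1, the ankyrin that ties band 3 to the spectrin skeleton, gave 2057, 2158 and 3036, highest in pool 3. Its other probe sets gave 593, 693 and 767, highest in pool 3 too, and 247, 71.1 and 128, highest in pool 1 and below the limit in pool 2. Rhag, the Rh-associated glycoprotein of the red cell surface, gave 187, 119 and 251. Rhd gave 98.4, 25.4 and 229, above the limit in pool 3 alone. Epb42, the band 4.2 protein that binds band 3, was below the limit in every pool, at 44.4, 19.8 and 40.8. The signals of Slc4a1, Rhag and Rhd lay too close to the limits, or below them, for pools 1 and 2 to be ordered.

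Among red cell enzymes and late erythroid genes 9 were measured and 4, Bpgm, Car2, Cat and Epor, were highest in pool 2. For Cat, the catalase gene, this rested on a dim probe set with 98.9, 192 and 114, and a brighter one, with 972, 769 and 1331, was lowest in pool 2. Bpgm, the enzyme that makes the haemoglobin ligand 2,3-bisphosphoglycerate, gave 794, 1460 and 879. Pool 2 was highest, at 1.66-fold over the higher of the other pools, the largest such ratio among the genes of the 4 lists. Car2, a carbonic anhydrase of red cells that Müller glia also express, gave 6957, 10302 and 7745. Car1, the carbonic anhydrase typical of red cells, gave 225, 21.1 and 44.7 and was above the limit in pool 1 alone. Prdx2, an abundant red cell peroxiredoxin that neurons express too, gave 647, 224 and 322 at one probe set and 3928, 9556 and 7094 at another, so these probe sets disagreed on the order of the pools, and the third was below every limit.

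Of the 8 measured erythroid transcription factors 5 were highest in pool 1, beside 3828 of 8251 genes. Klf1, the factor that binds the CACCC box of the adult beta-globin promoter, gave 871, 186 and 301, highest in pool 1. Gata1, the main GATA factor of erythroid cells, gave 79.4, 111 and 150, near the limits and highest in pool 3. Ldb1, which joins the locus control region to globin promoters and is expressed in many tissues, gave 2121, 500 and 651. Its cofactor Lmo2 gave 407, 325 and 283 at one probe set and 106, 246 and 211 at another, the second highest in pool 2 and below the limit in pool 1. Zfpm1, a partner of Gata1, gave 339, 397 and 502. At the probe set read for each factor, Tal1 was the 1 highest in pool 2, at 36.2 and below the limit in every pool.

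Of the globins of the embryo, Hba-x was above the limit in pools 2 and 3, and the others were near or below the limits. Hba-x, the embryonic alpha-like chain, gave 77.4, 166 and 258 and was highest in pool 3. Hbb-y, an embryonic beta-like chain, gave 25.7, 64.1 and 108 at one probe set and 143, 25.6 and 113 at another. Hbb-bh1, another embryonic chain, gave 67.9, 44.3 and 66.4, below the limit in every pool. The alpha-globin pseudogene Hba-ps3 had a probe set that gave 864, 739 and 767, with no high pool 2. Mb, the oxygen store of muscle, gave 449, 72.8 and 14.6 at one probe set, above the limit in pool 1 alone. Another Mb probe set gave 58.8, 17.9 and 15.8, below the limit in every pool. Pool 2 was highest at 4 of the 5 probe sets of adult chains and at no measured probe set of an embryonic chain, beside 25% of all probe sets. The adult chains were chosen with their high pool 2 known, and the signals of Hbb-y and Hbb-bh1 have no reliable order. The order for Hba-x rests on 1 array per pool. Nothing is therefore read from this contrast.

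**Figure D2:**
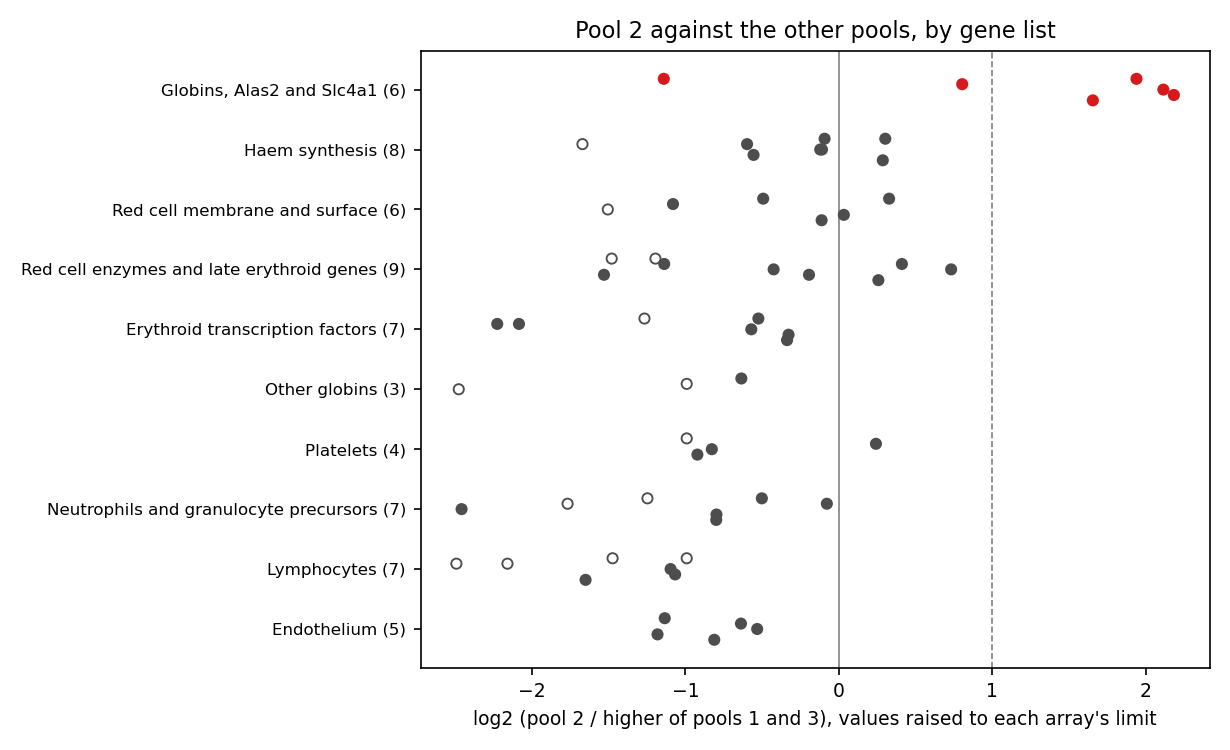
Log2 ratio of pool 2 to the higher of pools 1 and 3, 1 point per probe set of the globins, Alas2 and Slc4a1 (top row) or per gene of a list, with signals below an array's limit raised to that limit. Numbers in brackets count the points, hollow points were below the limit in pool 2, and the dashed line marks a 2-fold ratio, which 4 points of the top row passed and no gene of the other rows did.

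Few genes of the other cells and proteins of blood were above the limit on all 3 arrays. In 4 lists, for platelets, granulocytes, lymphocytes and the liver-made proteins of plasma, 23 of 29 genes were measured. Of these 3 were above the limit on all 3 arrays, against 60.7% of all genes. In at least 1 pool, 4 of 4 platelet, 7 of 8 granulocyte, 7 of 8 lymphocyte and 1 of 3 plasma protein genes were above it. None of the 23 was called in pool 2, which is near the background of 0.23% of all genes and so says little about these lists. Among the 23, 1 gene, Gp1bb of the platelet surface, was highest there, with 129, 264 and 223 in pools 1, 2 and 3. The 3 above the limit on all 3 arrays were Camp, Lcn2 and Cd4. Camp, a granule peptide of neutrophils, gave 387, 86.2 and 474, and Lcn2, another neutrophil granule protein, gave 189, 179 and 160 at one probe set and 243, 145 and 390 at another. Cd4, of helper T cells and some myeloid cells, gave 769, 360 and 268. The summed signals of the measured lymphocyte genes were 2721, 806 and 666, and 6 of the 8 were called in pool 1, where 9.8% of all genes were. Ighm was 1 of the 6, but a brighter Ighm probe set gave 458, 267 and 296, only 1.55-fold in pool 1 over pool 3. In these 4 lists all 4 genes with several probe sets had probe sets that differed in which pool was highest. The sums of the 4 measured platelet genes were 466, 460 and 650, and those of the 8 measured granulocyte genes were 1373, 791 and 1292.

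The endothelial genes above the limit on all 3 arrays were lowest in pool 2. Pecam1, an adhesion molecule between endothelial cells, gave 629, 286 and 363 in pools 1, 2 and 3, Kdr, a VEGF receptor, gave 819, 527 and 808, and Cldn5, a tight junction protein of the blood-retina barrier, gave 478, 331 and 411. Pool 2, where these 3 genes were lowest, was highest at 4 of the 5 adult globin probe sets. The median deposited intensity over all probe sets was lowest in pool 2 as well, at 296, 216 and 250 in pools 1, 2 and 3. Whether the endothelial values differ from this trend of the arrays was not tested, and nothing is read from the opposite directions. Over the 6 measured endothelial genes the summed signal was 2327, 1382 and 1751, and 3 of them were above the limit on all 3 arrays.

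Genes for handling haem and iron outside red cells were also read. Hmox1, the inducible enzyme that breaks down haem, gave 2184, 2386 and 1420, and Hmox2, its constitutive form, gave 458, 253 and 177. Hp, which encodes the haemoglobin-binding plasma protein haptoglobin, gave 686, 276 and 335. Blvra, the enzyme that makes bilirubin from biliverdin, gave 45.0, 214 and 221. None of the 8 measured genes was called in pool 2, and 2, Hmox1 and Fth1, were highest there, the ferritin gene Fth1 with 3964, 7292 and 5205 at one probe set and 5097, 5593 and 13037 at another.

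Pigment cell and connective tissue genes differed between pools too. At the probe set read for each, all 6 measured pigment cell genes were highest in pool 2, with summed signals of 2031, 12917 and 8368 in pools 1, 2 and 3. Dct, an enzyme of melanin synthesis, gave 765, 5724 and 3742, and Pmel, the melanosome matrix protein, gave 454, 4105 and 2610. Pool 3 was 4.89-fold over pool 1 for Dct, 5.75-fold for Pmel and at least 6.22-fold for Tyrp1, another enzyme of melanin synthesis, whereas for the 4 adult globin probe sets above the limit the ratio of pool 3 to pool 1 ran from 0.991 to 1.63. The list was not uniform: this ratio was at least 1.97 for Rdh5, at least 1.06 for Tyr and 0.875 for Ttr, the transthyretin gene, which gave 609, 891 and 533. Another Tyrp1 probe set, with 98.9, 519 and 574, was highest in pool 3. Ratios of pool 2 to pool 3 were 1.53 for Dct, 1.57 for Pmel and 1.86 for Rdh5, against 1.75 to 4.59 for those 4 globin probe sets. Pool 2 over pool 1 was 7.49 for Dct, 9.04 for Pmel and at least 8.94 for Tyrp1, against 2.60 to 6.27 for the same globin probe sets. This ratio was at least 3.66 for Rdh5, at least 1.10 for Tyr and 1.46 for Ttr. In the list of smooth muscle and connective tissue, whose 8 genes summed to 2407, 3989 and 4410, Dcn, a matrix proteoglycan named after its values were seen, gave 23.1, 602 and 648. The part of pigment cell or connective tissue RNA in the globin values was not tested. Summed over 9 measured genes of retinal neurons and glia, the signal was 63088, 86678 and 61238, dominated by the rod transducin gene Gnat1, and 8 of the 9 genes were above the limit on all 3 arrays.

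**Figure D3:**
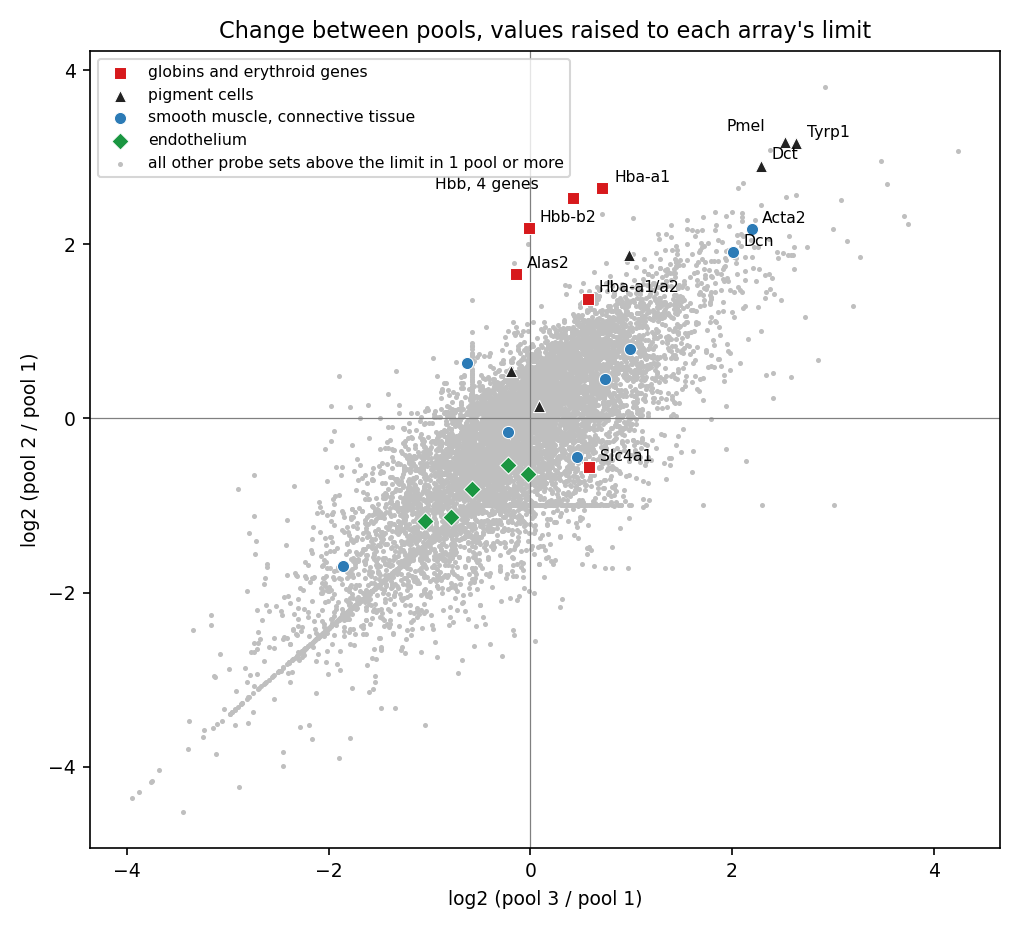
Log2 ratio of pool 3 to pool 1 (horizontal) and of pool 2 to pool 1 (vertical) for all probe sets above the limit in at least 1 pool, with signals below an array's limit raised to it. Hba-a1, the shared beta-globin probe set, Hbb-b2 and Alas2 lie above most of the cloud, as do some genes that are not members, Gpaa1 and Eif2ak1 among them. For these members, in that order, the ratios of pool 3 to pool 1, before the log, were 1.63, 1.34, 0.991 and 0.906. The last had pool 1 raised to its limit. Dct, Pmel and Tyrp1 lie at the upper right, and the endothelial genes lie below 0 on the vertical axis.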

How the data were processed

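RNA of 3 pools of neural retina was measured on 1 array each. The deposited table holds 1 linear intensity per probe set and array; the authors' software, background correction and scaling are not given in the sources used here. The trimmed mean of the deposited intensities (2% off each end), array controls included, was 500.2, 500.3 and 500.2. Each array was multiplied by a factor (0.998, 1.00 and 1.00) that made the trimmed mean over probe sets other than array controls equal. Values under the 5th percentile of an array were raised to it for log2 values only. Symbols came from the platform annotation: 10833 probe sets had 1 symbol, 396 several and 1193 none. A list gene was read from 1 probe set, plain suffix preferred, then highest mean, which gave 8251 genes. The members and lists were chosen with earlier results of these data known. Named genes were all members, the first 4 measured genes of each list (or those above the limit on all 3 arrays, where 4 or fewer), list genes called in pool 2, of which there were none, and the 8 profiles nearest to Hba-a1. Any other gene was named after its values were seen, among them Eif2ak1, Gata1, the embryonic globins, Hba-ps3, Mb and Dcn. No group was compared, so no test was run. The ratio computation was tested on simulated data. Alternatives concerned scaling, limit, pseudocount, choice of probe set and pools left out. Python 3.11.15, numpy 2.4.6 and pandas 2.3.3 were used.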

Additional observations from a re-analysis of the deposited data

How the results depend on the processing

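With 1 pool left out, mean levels ran from 5369 to 16114 for Hba-a1, from 6835 to 20862 for the shared beta-globin probe set, from 1213 to 3377 for Hbb-b2, from 1979 to 3250 for the probe set of Hba-a1 and Hba-a2, from 114 to 325 for Alas2 and from 111 to 176 for Slc4a1. The lowest came without pool 2, except for Slc4a1, where it came without pool 3. The spread between pools includes pool 2 itself, so that a level within it is no sign of stability. Under the alternatives the ratio of pool 2 to the higher of the other pools ran from 3.02 to 4.43 for Hba-a1, from 3.37 to 5.0 for the shared beta-globin probe set, from 3.65 to 5.29 for Hbb-b2, from 2.15 to 4.01 for Alas2, from 1.56 to 2.02 for the probe set of Hba-a1 and Hba-a2 and from 0.453 to 0.548 for Slc4a1. The lowest values of the first 3 came with quantile normalization, which also evens out the brighter end of pool 2. With 1 probe set per gene the count of called members was 3. The count of erythroid list genes above the limit ran from 18 to 23, with none called in pool 2 in any alternative. The count of other blood genes above the limit on all 3 arrays, 3 in the values given, was 1 with the limit at the highest control probe set or at the 40th percentile of an array, and ran from 3 to 8 with 1 pool left out (8 without pool 1, 5 without pool 3, fewer arrays being required). No paired analysis was possible because the pools form 1 group. Signals near or below the limits, those of Slc4a1 in pools 1 and 2, Gata1, Hbb-y and Hbb-bh1 among them, have no reliable order. Each ratio between pools rests on 1 array per pool.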
